A study of Mus musculus with 70 samples.

Results

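The 30 genes that mark astrocytes, the glial cells that ensheathe synapses and blood vessels, were followed across striatum and cerebral cortex of mice with reduced thyroid hormone signalling. They were taken as a list of gene symbols, each matched to 1 Ensembl identifier among the 38293 gene lines of the count files, and all 30 were found. The list holds intermediate filament, enzyme, transporter, receptor and secreted protein genes. The rule itself uses no measured value, but the list was chosen with earlier results of these data known.

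RNA of whole striatum and whole cerebral cortex was sequenced from mice in 5 conditions, 7 libraries per tissue and condition, 70 in all. MctOatp KO mice are double knockouts, and 1 of the deleted genes is Slco1c1, whose product OATP1C1 carries T4 into the brain. WTa mice are the wild types that the labels tie to this line. MctDio KO mice are double knockouts in which 1 of the deleted genes is Dio2, the deiodinase that turns T4 into active T3. MMI mice are wild types made hypothyroid by 0.02% methimazole and 1% potassium perchlorate in the water of their dams, from embryonic day 9 to postnatal day 21. WT mice are untreated wild types. Hypothyroid and double-knockout mice were studied on postnatal days 21 to 23. The hypothyroid mice were C57BL/6J males. For the wild types the age, and for every other group the sex, is not given in the sources at hand. No cell type was purified, so every value is a level in whole tissue, and fewer astrocytes and less RNA per astrocyte cannot be told apart.

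Astrocytes take up T4 and hold most of the brain's Dio2, so they supply T3 to neighbouring cells. T3 acts through nuclear receptors that bind DNA at copies of the half-site AGGTCA, and thyroid hormone is known to promote the maturation of astrocytes after birth. Mature astrocytes clear glutamate and potassium from the synaptic cleft, buffer pH, store glycogen and contact vessels through endfeet rich in the water channel aquaporin-4.

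Between 7802957 and 22485839 reads per library were assigned to genes. All 30 genes had reads in all 70 libraries and passed the filter on low counts in every fit, with the lowest value, 0.955 CPM (counts scaled to library size), for Etnppl in a MctOatp KO striatum. The labels of the knockout lines were checked on their target genes. Dio2 fell to 5.09 ± 0.984 CPM in MctDio KO striatum, against 109.5 ± 15.6 CPM in WT striatum, and to 6.27 ± 1.21 CPM in MctDio KO cortex, against 178 ± 20.9 CPM in WT cortex (mean ± SD, n = 7 each). Slco1c1 fell to 45.5 ± 3.49 CPM in MctOatp KO striatum (n = 6), against 84.6 ± 4.51 CPM in WTa striatum, and to 45.8 ± 6.23 CPM in MctOatp KO cortex (n = 5), against 86.1 ± 8.26 CPM in WTa cortex (n = 7 each). The log2 changes were -4.44 and -4.83 for Dio2 and -0.89 and -0.90 for Slco1c1, in striatum and cortex, and none of these groups overlapped (adjusted p of 1.60e-07 or less, edgeR). Slco1c1 RNA thus remained at 0.54 of the WTa level in both tissues, so its level alone does not show a full loss. The libraries cortex MctOatp KO 1 and 7 and striatum MctOatp KO 7 stood apart from the rest of their groups. In the library labelled cortex MctOatp KO 7, the summed level of 6 cortical neuron markers was 251 CPM and that of 6 striatal markers 3231 CPM, while the library labelled striatum MctOatp KO 7 had 2459 and 153 CPM, so each carried the markers of the other tissue. In cortex MctOatp KO 1, 39.7% of reads did not map uniquely, against 27.8 to 30.5% in the other cortex libraries. Values leave these 3 out unless a value is given as labelled, with every library kept; this leaves 6 striatum and 5 cortex MctOatp KO libraries, and each MctOatp KO change named below is given both ways, or as a range over several genes. Statements that groups overlap or not are for the libraries kept.

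In untreated WT mice the 30 genes spanned a wide range of levels per length of exon. Sparcl1, which encodes the synapse-organising protein hevin, was highest in both tissues, with 514 ± 37.4 RPKM, which scales counts to exon length and library size, in striatum and 786 ± 58.3 RPKM in cortex (mean ± SD, n = 7). Clusterin (Clu), the glycolytic enzyme gene Aldoc and Ndrg2 followed, with 289 ± 14.7, 229 ± 8.05 and 205 ± 17.6 RPKM in striatum. In cortex the same genes had 287 ± 35.9, 306 ± 24.9 and 231 ± 38.7 RPKM; there Clu and Aldoc did not differ beyond their spread. Slc14a1 (urea transporter), Slc15a2 (peptide transporter) and Etnppl, an enzyme gene of phosphoethanolamine breakdown, were lowest, between 2.78 and 3.36 RPKM in striatum and between 2.57 and 3.45 RPKM in cortex. The plot of levels per length gives the order of all 30 genes, in which many neighbours lie within each other's SD.

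**Figure D1:**
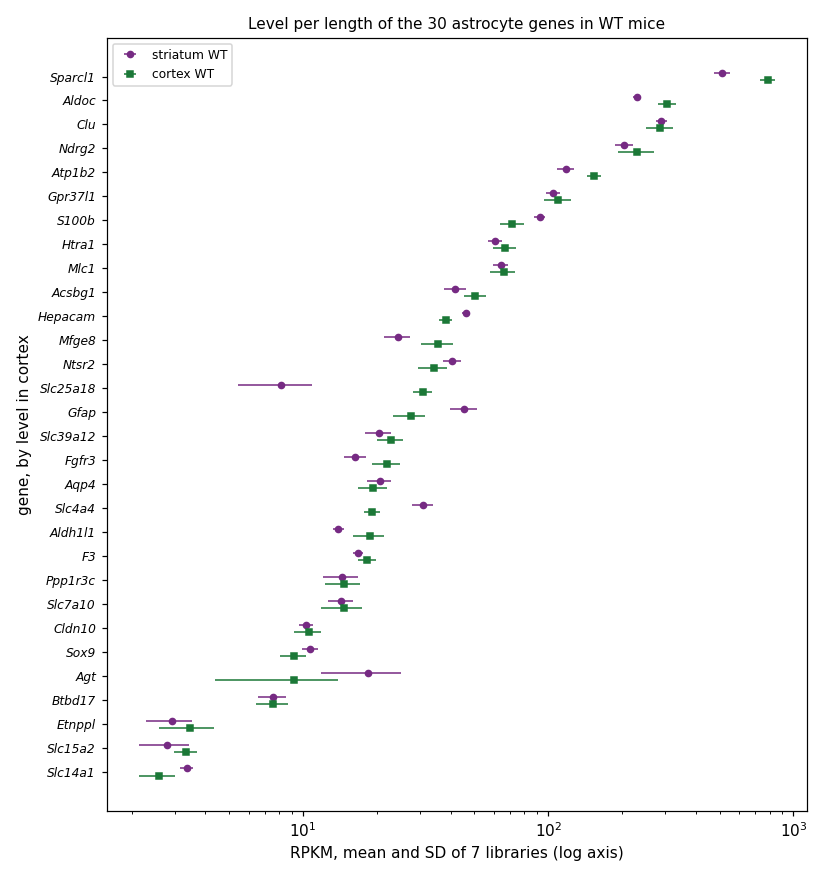
Level per length in WT mice, in RPKM on a log axis, for striatum (circles) and cortex (squares); points are means and bars SDs of 7 libraries. Sparcl1 lies highest in both tissues, and Slc25a18 has the widest gap between them, 8.16 RPKM in striatum and 30.9 RPKM in cortex.

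Tissue differences between WT striatum and WT cortex were common over all tested genes, of which 32.2% were higher and 29.1% lower in striatum (edgeR quasi-likelihood test, Benjamini-Hochberg adjusted p under 0.05, fit over both tissues). The members lay near these shares, with 8 of the 30 genes higher and 10 lower in striatum. The mitochondrial glutamate carrier gene Slc25a18 differed most among the members called lower, with 10.6, 13.5 and 23.9 CPM (lowest, median and highest of 7 libraries) in WT striatum, against 49.1, 59.6 and 64.9 CPM in WT cortex. The tissues did not overlap, which held for 9 of the 30 genes and for 32.2% of all genes, and the log2 difference, striatum minus cortex, was -1.91 (SE 0.13, adjusted p = 1.32e-20). Sparcl1 and Aldoc were lower in striatum too, with log2 differences of -0.62 (SE 0.05, adjusted p = 1.24e-16) and -0.42 (SE 0.05, adjusted p = 1.63e-12). Among the classical markers, Gfap, the astrocyte intermediate filament, was higher in striatum (0.73, SE 0.11, adjusted p = 3.34e-08), as was the calcium-binding protein gene S100b (0.37, SE 0.06, adjusted p = 2.41e-07). Aldh1l1, a folate enzyme, was lower in striatum (-0.42, SE 0.06, adjusted p = 6.08e-09), and Aqp4 differed by 0.08 (SE 0.13, adjusted p = 0.595). Other members with higher striatal values were Slc4a4, the sodium bicarbonate cotransporter (0.68, SE 0.08, adjusted p = 9.72e-11), and Agt, which encodes angiotensinogen (1.03, SE 0.26, adjusted p = 0.000400). With the animal as a block, since both tissues came from the same mice, the count was 8 higher and 14 lower. The share of all genes called then rose too, to 65% from 61.3%.

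The members split in the models of thyroid hormone deficiency. In MctOatp KO striatum 2 of the 30 genes rose and 15 fell relative to WTa, where 12.1% of all tested genes rose and 13.0% fell. In MctOatp KO cortex 2 rose and 15 fell, where 10.1% of all genes rose and 11.6% fell. In MctDio KO striatum 2 rose and 6 fell relative to WT, where 10.5% of all genes rose and 11.1% fell. In MctDio KO cortex 2 rose and 11 fell, where 11.1% of all genes rose and 11.8% fell. In MMI striatum 4 rose and 14 fell, where 19.0% of all genes rose and 19.7% fell. In MMI cortex 7 rose and 12 fell, where 19.9% of all genes rose and 20.0% fell. The members' share of falls was above that of all genes in each of the 6 comparisons, and their share of rises was below it in each but MMI cortex. Groups that did not overlap were found for 12 of the 30 genes in MctOatp KO striatum (11.0% of all genes), 13 in MctOatp KO cortex (12.2%), 4 in MctDio KO striatum (5.53%), 3 in MctDio KO cortex (5.40%), 11 in MMI striatum (15.2%) and 10 in MMI cortex (14.2%). The median log2 change of the 30 was -0.20 in MctOatp KO striatum and -0.20 in MctOatp KO cortex, -0.08 and -0.09 in MctDio KO, and -0.09 and -0.15 in MMI, with striatum before cortex, and the median over all genes was 0.01 in each. The comparisons of MctDio KO and MMI share the WT libraries and are therefore given side by side.

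With the 3 libraries kept as labelled, the counts were 2 higher and 17 lower in MctOatp KO striatum and 3 higher and 12 lower in MctOatp KO cortex. There 11.2% of all genes rose and 10.7% fell in striatum, and 6.99% rose and 5.85% fell in cortex. As labelled, MctDio KO cortex had 1 higher and 6 lower (3.35% and 4.19% of all genes), and MMI cortex 7 higher and 9 lower (10.9% and 9.74% of all genes). As labelled, groups did not overlap for 9 members in MctOatp KO striatum (6.76% of all genes) and 8 in MctOatp KO cortex (3.94%). P-values measure the spread between these libraries; the library names tag numbered animals, which the labels do not describe further.

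**Figure D2:**
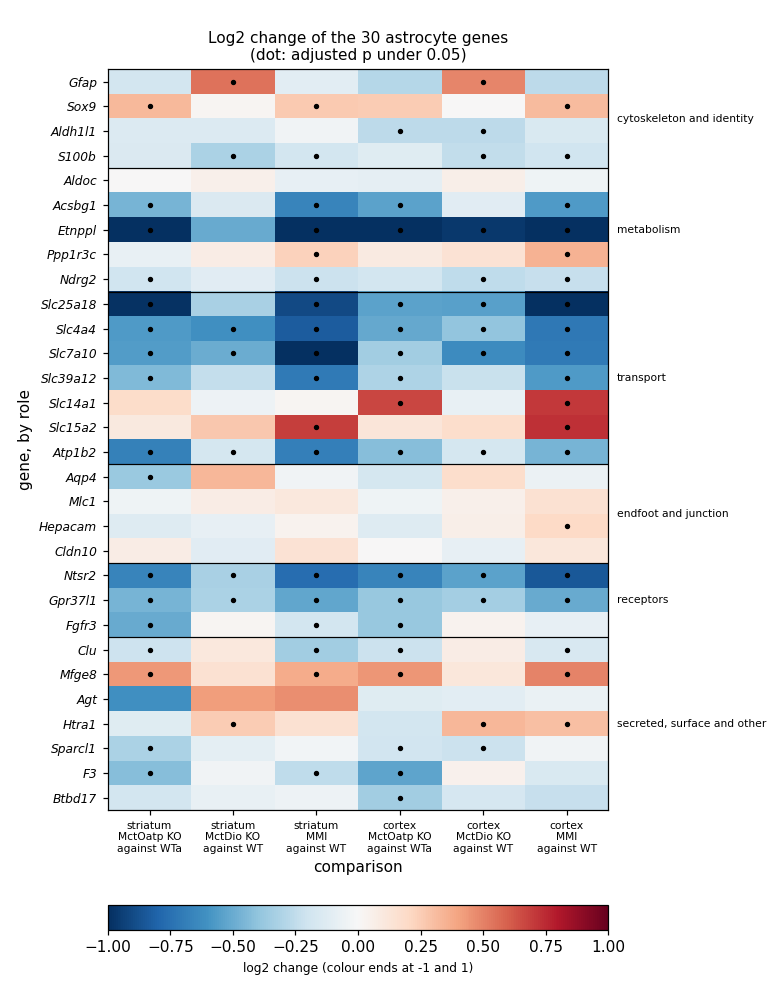
Log2 change of the 30 genes, in rows grouped by role, in 6 comparisons of a model with its wild type, in columns; blue is lower and red higher in the model, the colour scale ends at -1 and 1, and a dot marks an adjusted p under 0.05. The transport and receptor rows are mostly blue with dots, and the endfoot and junction rows are mostly pale.

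Summed over the 30 genes, the level was 5614, 5661 and 5952 CPM (lowest, median and highest library) in MctOatp KO striatum, against 6481, 6877 and 7210.0 CPM in WTa striatum. It was 6264, 6599 and 7031 CPM in MctOatp KO cortex, against 7349, 7689.9 and 8009 CPM in WTa cortex. Neither pair overlapped. As labelled, the sum was 5614, 5677 and 6303 CPM in MctOatp KO striatum, still below WTa, and 5611, 6599 and 8025 CPM in MctOatp KO cortex, where the highest library, cortex MctOatp KO 1, lay above every WTa library. In striatum the sum was 5974, 7041 and 7176 CPM in MctDio KO and 5562, 5919 and 6478 CPM in MMI, against 6663, 6833 and 7591 CPM in WT. In cortex it was 6686, 7766 and 7867 CPM in MctDio KO and 6836, 7489 and 8036 CPM in MMI, against 7230.0, 8129.8 and 9516 CPM in WT. The sum is weighted towards Sparcl1, Aldoc and Clu. It lay lower in MMI striatum without overlap, while MctDio KO overlapped WT in both tissues and MMI overlapped WT in cortex.

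Etnppl, whose product breaks down phosphoethanolamine, had the lowest log2 change of the 30 genes in MctOatp KO and MMI in both tissues. In striatum it had 0.955, 2.71 and 6.41 CPM (lowest, median and highest) in MctOatp KO mice, against 14.2, 17.1 and 22.2 CPM in WTa mice. In cortex the 5 MctOatp KO libraries had 0.993, 1.51, 2.16, 2.95 and 6.24 CPM, against 13.7, 17.3 and 21.1 CPM in WTa mice. Every MctOatp KO library was below every WTa library in both tissues, with log2 changes of -2.41 (SE 0.39, adjusted p = 2.53e-05) in striatum and -2.68 (SE 0.40, adjusted p = 1.25e-05) in cortex. The 3 libraries left out held 2.72 CPM in striatum MctOatp KO 7, and 2.48 and 3.31 CPM in cortex MctOatp KO 1 and 7, inside the range of their groups. With them the changes were -2.46 (adjusted p = 5.05e-06) in striatum and -2.65 (adjusted p = 1.18e-06) in cortex. In striatum the levels were 7.26, 13.3 and 32.3 CPM in MctDio KO and 1.86, 7.20 and 12.7 CPM in MMI, against 18.9, 22.4 and 34.5 CPM in WT. In cortex they were 5.95, 10.8 and 23.6 CPM in MctDio KO and 1.27, 4.96 and 10.8 CPM in MMI, against 19.7, 27.1 and 38.4 CPM in WT. MMI and WT did not overlap in either tissue, whereas the MctDio KO libraries reached from the MMI range into the WT range. The log2 changes were -1.57 (SE 0.32, adjusted p = 0.000188) in MMI striatum and -2.36 (SE 0.32, adjusted p = 8.28e-07) in MMI cortex, and -0.50 (SE 0.30, adjusted p = 0.253) in MctDio KO striatum, which did not pass, and -0.96 (SE 0.29, adjusted p = 0.0160) in MctDio KO cortex. By library, MctDio KO 1 to 7 had 27.6, 21.6, 32.3, 13.3, 9.98, 7.26 and 9.07 CPM in striatum. In cortex they had 20.6, 21.6, 23.6, 10.7, 10.8, 5.95 and 8.07 CPM, so MctDio KO 1 to 3 lay above MctDio KO 4 to 7 in both tissues. The coefficient of variation of Etnppl was 64.0% in MctOatp KO striatum and 74.8% in MctOatp KO cortex, against 17.2% in WTa striatum and 16.3% in WTa cortex. Without MctOatp KO 6 the cortical value was 44.3%, and without MctOatp KO 4 the striatal one was 53.2%. In striatum it was 57.2% in MctDio KO and 44.7% in MMI, against 21.5% in WT. In cortex it was 49.9% in MctDio KO and 54.3% in MMI, against 25.0% in WT.

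Because Etnppl, Slc25a18 and Slc4a4 fell in MctOatp KO and MMI of both tissues while Gfap rose in MctDio KO, the 250 bases before their annotated starts are shown, from RefSeq on GRCm38.p6. Letters are in lower case and 5′ to 3′ on the strand of the gene, with the thyroid hormone receptor half-site AGGTCA, on either strand, in capitals.
Etnppl, chr3:130617198-130617447, + strand: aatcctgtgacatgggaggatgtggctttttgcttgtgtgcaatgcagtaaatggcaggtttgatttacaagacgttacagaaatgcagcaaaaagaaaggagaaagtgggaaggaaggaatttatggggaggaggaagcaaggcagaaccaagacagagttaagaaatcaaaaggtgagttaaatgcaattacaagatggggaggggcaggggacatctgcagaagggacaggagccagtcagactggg
Slc25a18, chr6:120773518-120773767, + strand: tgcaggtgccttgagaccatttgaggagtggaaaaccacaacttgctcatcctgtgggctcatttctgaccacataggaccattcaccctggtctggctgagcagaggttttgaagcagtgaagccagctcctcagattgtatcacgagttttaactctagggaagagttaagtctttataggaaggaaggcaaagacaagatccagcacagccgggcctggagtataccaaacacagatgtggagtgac
Slc4a4, chr5:88887010-88887259, + strand: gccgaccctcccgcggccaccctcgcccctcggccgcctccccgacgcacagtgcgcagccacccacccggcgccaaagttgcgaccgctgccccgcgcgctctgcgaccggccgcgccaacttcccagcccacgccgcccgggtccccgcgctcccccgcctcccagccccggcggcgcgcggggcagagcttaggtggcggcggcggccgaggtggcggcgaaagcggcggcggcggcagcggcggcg
Gfap, chr11:102897201-102897450, - strand: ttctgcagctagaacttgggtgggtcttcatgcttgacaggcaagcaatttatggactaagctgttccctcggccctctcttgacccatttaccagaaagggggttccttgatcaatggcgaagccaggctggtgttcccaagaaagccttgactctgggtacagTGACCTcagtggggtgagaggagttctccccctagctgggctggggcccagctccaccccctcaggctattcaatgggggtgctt
The half-site was found once in the Gfap window and not in the windows of the other genes. The table held 31 windows for 24 of the 30 genes, and 4 of them (12.9%) contained AGGTCA, those of Aldh1l1, Gfap and second starts of Ndrg2 and Slc4a4, which are not printed, against 14.0% of all 32851 promoter windows. The direct repeat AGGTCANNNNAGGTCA occurred in 0 of the member windows and in 5 of all windows (0.0152%). TTGGCA, the half-site of nuclear factor I proteins, which act in astrocyte differentiation, was in 5 member windows (16.1%), those of Aldoc, Hepacam, S100b, Slc15a2 and a second start of Etnppl, other than the one printed, against 12.3% of all windows. AGGTCA is contained in the direct repeat, and TTGGCA overlaps neither. These shares lie near those of all windows, and a match or its lack in so short a window says nothing of binding.

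Of 7 transporter and pump genes, 5 fell in MctOatp KO striatum and 5 in MctOatp KO cortex, 3 and 4 in MctDio KO striatum and cortex, and 5 and 5 in MMI striatum and cortex. The other transporter genes, Slc14a1 and Slc15a2, did not fall in any of these comparisons and rose in some. Of all genes, 13.0% and 11.6% fell in MctOatp KO striatum and cortex, 11.1% and 11.8% in MctDio KO, and 19.7% and 20.0% in MMI. As labelled, Slc25a18 in MctOatp KO striatum and Atp1b2 in both tissues of MctDio KO were no longer among the genes that fell. Slc25a18 had 33.9, 41.3, 42.8, 43.1 and 43.2 CPM in the 5 MctOatp KO cortices, against 55.4, 56.8 and 67.3 CPM in WTa cortex. It had 35.8, 40.0 and 44.8 CPM in MctDio KO cortex and 23.3, 27.5 and 30.3 CPM in MMI cortex, against 49.1, 59.6 and 64.9 CPM in WT cortex. None of the 3 cortical models overlapped its wild type, and the log2 changes were -0.53 (SE 0.07, adjusted p = 2.87e-07) in MctOatp KO, -0.54 (SE 0.06, adjusted p = 2.32e-08) in MctDio KO and -1.11 (SE 0.07, adjusted p = 7.87e-17) in MMI. In striatum, where the gene is lower, it had 6.59, 9.58 and 11.96 CPM in MctOatp KO mice, against 16.1, 18.9 and 24.2 CPM in WTa mice, a log2 change of -0.99 (SE 0.19, adjusted p = 0.000240). It had 9.43, 12.3 and 17.5 CPM in MctDio KO striatum and 5.06, 7.37 and 13.9 CPM in MMI striatum, against 10.6, 13.5 and 23.9 CPM in WT striatum. There MMI fell (-0.90, SE 0.18, adjusted p = 0.000194) with overlapping libraries, and MctDio KO had a change of -0.32 (SE 0.18, adjusted p = 0.217), which did not pass. The left-out libraries carried other values of Slc25a18, as cortex MctOatp KO 7 held 10.2 CPM and striatum MctOatp KO 7 38.2 CPM, each at the level of the other tissue. As labelled, the MctOatp KO changes were -0.44 (adjusted p = 0.269) in striatum, which did not pass, and -0.69 (adjusted p = 0.00250) in cortex. A small part of its exons, 1.7%, overlaps Atp6v1e1 on the other strand, and unstranded reads there cannot be assigned to one gene.

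Slc4a4, the electrogenic sodium bicarbonate cotransporter that buffers pH at synapses, fell in each of the 6 comparisons. It had 199, 218 and 230.0 CPM in MctOatp KO striatum, against 289, 319 and 385 CPM in WTa striatum. The levels were 184, 213 and 252 CPM in MctDio KO striatum and 150.3, 193 and 216 CPM in MMI striatum, against 286, 329 and 379 CPM in WT striatum. No striatal model overlapped its wild type. In cortex the 5 MctOatp KO libraries had 117, 138, 157, 157 and 176 CPM, against 172, 221 and 236 CPM in WTa mice. MctDio KO and MMI cortices had 136, 152 and 184 CPM and 98.8, 134 and 143 CPM, against 175, 211 and 221 CPM in WT cortex. In cortex MMI was clear of its wild type, and the highest MctOatp KO and MctDio KO libraries reached into the range of theirs. Log2 changes in striatum and cortex were -0.57 (SE 0.08, adjusted p = 8.14e-07) and -0.51 (SE 0.10, adjusted p = 0.000128) in MctOatp KO, -0.62 (SE 0.07, adjusted p = 5.19e-08) and -0.40 (SE 0.09, adjusted p = 0.000805) in MctDio KO, and -0.83 (SE 0.08, adjusted p = 2.53e-11) and -0.71 (SE 0.09, adjusted p = 4.69e-08) in MMI. As labelled, those of MctOatp KO were -0.65 (adjusted p = 4.18e-06) and -0.55 (adjusted p = 0.00190).

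Atp1b2, the beta-2 subunit of the sodium-potassium pump, also fell in all 6, with little spread between libraries. It had 266, 299 and 313 CPM in MctOatp KO striatum, against 444, 469 and 523 CPM in WTa striatum. It had 397, 411, 411, 415 and 424 CPM in the 5 MctOatp KO cortices, against 539, 559 and 579.5 CPM in WTa cortex. MMI libraries had 275, 298 and 329.7 CPM in striatum, against 413, 493 and 528 CPM in WT. They had 439, 452 and 479 CPM in cortex, against 563, 625 and 685 CPM in WT. None of these 4 pairs of groups overlapped. The changes were -0.68 (SE 0.05, adjusted p = 3.18e-12) and -0.42 (SE 0.04, adjusted p = 3.86e-10) in MctOatp KO striatum and cortex and -0.68 (SE 0.05, adjusted p = 1.82e-13) and -0.46 (SE 0.04, adjusted p = 4.86e-13) in MMI striatum and cortex. MctDio KO had 377, 434 and 451 CPM in striatum and 511, 568 and 580.3 CPM in cortex, and smaller log2 changes from WT of -0.18 (SE 0.05, adjusted p = 0.0120) and -0.17 (SE 0.04, adjusted p = 0.000530). With all libraries as labelled, MctOatp KO gave -0.59 (adjusted p = 4.44e-08) in striatum and -0.64 (adjusted p = 0.000509) in cortex, and the MctDio KO changes, -0.18 (adjusted p = 0.0771) and -0.17 (adjusted p = 0.499), no longer passed.

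Slc7a10, which exchanges glycine, D-serine and other small neutral amino acids, had 13.4, 21.1 and 25.1 CPM in MctOatp KO striatum, against 23.9, 31.1 and 35.8 CPM in WTa striatum. It had 11.7, 22.3 and 31.1 CPM in MctDio KO striatum and 11.2, 13.9 and 17.7 CPM in MMI striatum, against 26.5, 29.4 and 37.3 CPM in WT striatum. All fell: the changes were -0.56 (SE 0.15, adjusted p = 0.00696), -0.50 (SE 0.14, adjusted p = 0.0118) and -1.08 (SE 0.15, adjusted p = 5.53e-07), and MMI and WT did not overlap. In cortex the changes were -0.35 (SE 0.12, adjusted p = 0.0301) in MctOatp KO, -0.63 (SE 0.11, adjusted p = 4.44e-05) in MctDio KO and -0.71 (SE 0.11, adjusted p = 2.73e-06) in MMI. As labelled, MctOatp KO gave -0.52 (adjusted p = 0.00976) in striatum and -0.44 (adjusted p = 0.0110) in cortex. Of its exons, 17.9% overlap Lrp3 on the other strand, whose reads cannot be separated. Slc39a12, a zinc transporter, fell in MctOatp KO (-0.44, SE 0.11, adjusted p = 0.00247 in striatum and -0.31, SE 0.11, adjusted p = 0.0327 in cortex) and in MMI (-0.71, SE 0.10, adjusted p = 8.31e-07 and -0.57, SE 0.10, adjusted p = 1.59e-05). Its MctDio KO changes of -0.24 and -0.22 did not pass, with adjusted p of 0.0901 and 0.100. The as-labelled MctOatp KO values were -0.42 (adjusted p = 0.00257) in striatum and -0.36 (adjusted p = 0.0167) in cortex. In MctOatp KO cortex the calls of both genes depend on single libraries. Slc7a10 had -0.30 (adjusted p = 0.0859) without MctOatp KO 3 and -0.24 (adjusted p = 0.124) without MctOatp KO 6. Slc39a12 had -0.27 (adjusted p = 0.0892) without MctOatp KO 2, -0.28 (adjusted p = 0.0886) without MctOatp KO 3 and -0.25 (adjusted p = 0.107) without MctOatp KO 6. With no filter on low counts they had -0.34 (adjusted p = 0.0698) and -0.30 (adjusted p = 0.0896).

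**Figure D3:**
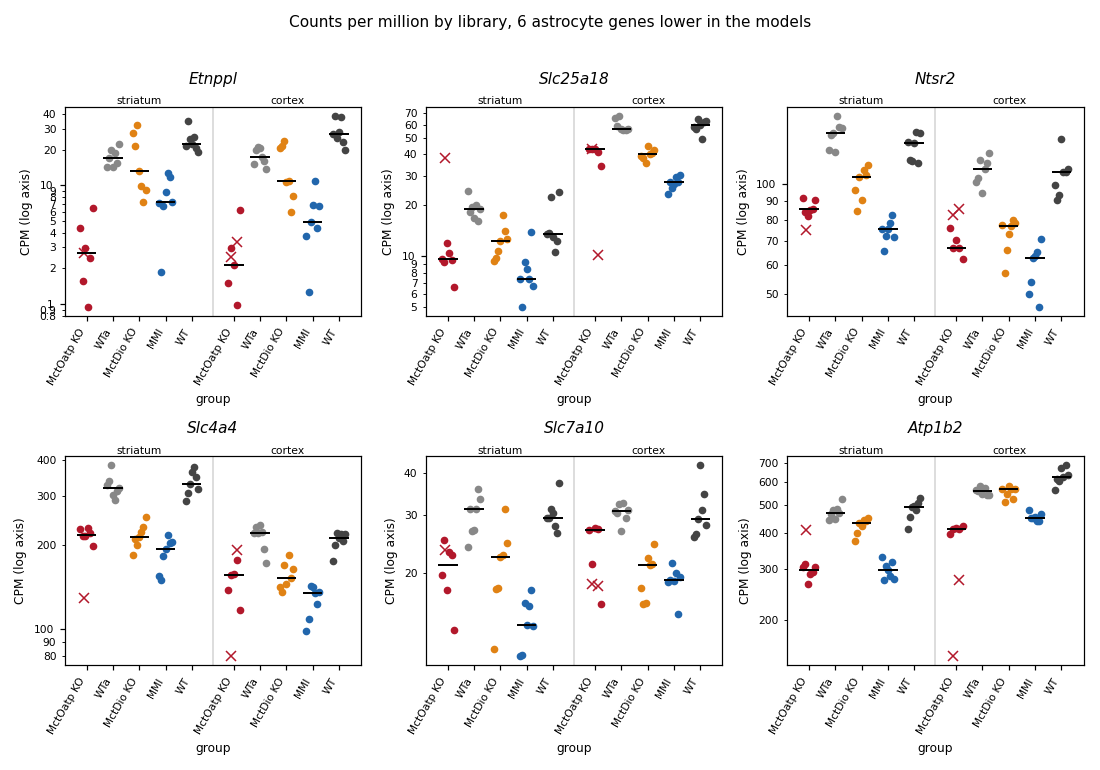
CPM by library on a log axis for Etnppl, Slc25a18, Ntsr2, Slc4a4, Slc7a10 and Atp1b2, with striatum on the left and cortex on the right of each panel; dots are libraries, bars group medians, and crosses the 3 MctOatp KO libraries left out. Etnppl lies lowest in MctOatp KO, and the Slc25a18 crosses of MctOatp KO 7 sit at the level of the other tissue.

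Receptor genes fell too. Ntsr2, the astrocyte neurotensin receptor, had 81.8, 85.4 and 92.0 CPM in MctOatp KO striatum, against 123, 138 and 154 CPM in WTa striatum. In cortex it had 62.5, 66.8, 66.9, 70.3 and 75.8 CPM in the 5 MctOatp KO cortices, against 94.5, 110.4 and 122 CPM in WTa cortex. In striatum it had 84.5, 105 and 113 CPM in MctDio KO and 65.7, 75.4 and 82.5 CPM in MMI, against 115, 130.2 and 139.7 CPM in WT. In cortex it had 57.1, 77.1 and 79.6 CPM in MctDio KO and 46.1, 62.6 and 70.7 CPM in MMI, against 90.4, 108 and 133 CPM in WT. In all 6 comparisons the model lay below its wild type with no overlap. The log2 changes in striatum and cortex were -0.66 (SE 0.06, adjusted p = 2.48e-10) and -0.66 (SE 0.09, adjusted p = 2.65e-06) in MctOatp KO, -0.32 (SE 0.06, adjusted p = 9.08e-05) and -0.54 (SE 0.09, adjusted p = 1.17e-05) in MctDio KO, and -0.76 (SE 0.06, adjusted p = 6.86e-13) and -0.85 (SE 0.09, adjusted p = 8.74e-10) in MMI. As labelled, those of MctOatp KO were -0.69 (adjusted p = 3.04e-10) and -0.58 (adjusted p = 4.07e-05). Gpr37l1, an orphan G protein-coupled receptor, averaged 172 ± 11.9 CPM in MctOatp KO striatum (n = 6), against 239 ± 12.1 CPM in WTa striatum (n = 7). It averaged 190.2 ± 20.3 CPM in MctDio KO and 165 ± 11.3 CPM in MMI striatum, against 238 ± 15.2 CPM in WT striatum (SD, n = 7 each). It fell in both tissues of every model, with striatal changes of -0.46 (SE 0.06, adjusted p = 1.46e-07), -0.32 (SE 0.06, adjusted p = 4.31e-05) and -0.52 (SE 0.06, adjusted p = 1.43e-09) in MctOatp KO, MctDio KO and MMI, and cortical changes of -0.38 (SE 0.07, adjusted p = 9.90e-05), -0.34 (SE 0.06, adjusted p = 9.73e-05) and -0.50 (SE 0.06, adjusted p = 4.73e-08). With every library kept, MctOatp KO gave -0.45 (adjusted p = 4.76e-07) in striatum and -0.46 (adjusted p = 9.63e-05) in cortex. Fgfr3, a fibroblast growth factor receptor, fell in MctOatp KO (-0.51, SE 0.07, adjusted p = 1.90e-06 in striatum and -0.38, SE 0.08, adjusted p = 0.000425 in cortex; as labelled -0.36, adjusted p = 0.00823 in striatum and -0.49, adjusted p = 0.000431 in cortex) and slightly in MMI striatum (-0.18, SE 0.07, adjusted p = 0.0363), which was lost as labelled (-0.18, adjusted p = 0.166). Its changes in MctDio KO were 0.02 in striatum and 0.04 in cortex, with adjusted p of 0.879 and 0.756. The MMI striatum call of Fgfr3 was also lost with no filter on low counts and with only the groups compared in the fit.

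Among the metabolic genes, Acsbg1, an acyl-CoA synthetase of long-chain fatty acids, averaged 109 ± 5.80 CPM in MctOatp KO striatum (n = 6), against 152 ± 7.91 CPM in WTa striatum (n = 7). It averaged 130.0 ± 9.98 CPM in MctOatp KO cortex (n = 5), against 189 ± 6.34 CPM in WTa cortex (n = 7). In MMI it averaged 95.1 ± 7.56 CPM in striatum, against 151 ± 15.3 CPM in WT. In MMI cortex it averaged 123 ± 7.78 CPM, against 182 ± 18.3 CPM in WT (SD, n = 7 each). These 4 pairs did not overlap, and the changes were -0.47 (SE 0.07, adjusted p = 7.34e-06), -0.53 (SE 0.06, adjusted p = 3.40e-08), -0.66 (SE 0.07, adjusted p = 1.18e-09) and -0.56 (SE 0.06, adjusted p = 2.38e-10). As labelled, MctOatp KO gave -0.44 (adjusted p = 3.26e-05) in striatum and -0.67 (adjusted p = 4.15e-06) in cortex. Acsbg1 did not pass in MctDio KO, with -0.14 (SE 0.07, adjusted p = 0.148) in striatum and -0.11 (SE 0.06, adjusted p = 0.152) in cortex. Ndrg2 fell in MctOatp KO striatum (-0.20, SE 0.06, adjusted p = 0.0154, and as labelled -0.20, adjusted p = 0.0172), in MctDio KO cortex (-0.25, SE 0.08, adjusted p = 0.0120), and in MMI striatum (-0.22, SE 0.06, adjusted p = 0.00301) and cortex (-0.23, SE 0.08, adjusted p = 0.0148). As labelled the cortical calls were lost, with -0.25 (adjusted p = 0.0925) in MctDio KO and -0.22 (adjusted p = 0.0834) in MMI. Both were also lost with only the groups compared in the fit. Ppp1r3c, which targets protein phosphatase 1 to glycogen, rose in MMI striatum (0.23, SE 0.08, adjusted p = 0.0270) and MMI cortex (0.35, SE 0.09, adjusted p = 0.00215), and its changes in the knockouts lay between -0.07 and 0.14, none of which passed. As labelled, its MctOatp KO changes were -0.06 (adjusted p = 0.677) in striatum and 0.13 (adjusted p = 0.420) in cortex. Aldoc passed in no model, with changes between -0.09 and 0.06 and adjusted p of 0.181 or more; as labelled, its MctOatp KO changes were 0.03 (adjusted p = 0.674) in striatum and -0.11 (adjusted p = 0.222) in cortex.

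Among the classical markers Gfap rose in MctDio KO. It had 225, 268 and 339.8 CPM in MctDio KO striatum and 149.8, 177 and 203 CPM in MMI striatum, against 154, 201 and 227 CPM in WT striatum. In cortex it had 142, 161 and 196 CPM in MctDio KO and 63.7, 101 and 139 CPM in MMI, against 99.3, 116 and 149 CPM in WT. Gfap rose in MctDio KO, with changes of 0.55 (SE 0.09, adjusted p = 1.95e-05) in striatum and 0.49 (SE 0.12, adjusted p = 0.00347) in cortex, although the lowest MctDio KO libraries reached into the WT range. Its changes in MMI, -0.11 (SE 0.09, adjusted p = 0.356) and -0.26 (SE 0.12, adjusted p = 0.0856), did not pass. In MctOatp KO it had 175, 210.1 and 228 CPM in striatum, against 192, 245 and 257 CPM in WTa. It had 97.5, 98.9, 113, 124 and 124 CPM in MctOatp KO cortex, against 112, 136 and 162 CPM in WTa. The changes of -0.18 (SE 0.09, adjusted p = 0.164) and -0.28 (SE 0.13, adjusted p = 0.132) did not pass. The as-labelled MctOatp KO values were -0.28 (adjusted p = 0.0781) in striatum and -0.08 (adjusted p = 0.778) in cortex, and the call of MctDio KO cortex was lost (0.49, adjusted p = 0.0649). Set against MMI directly, MctDio KO was higher by 0.65 (SE 0.09, adjusted p = 3.41e-06) in striatum and 0.75 (SE 0.12, adjusted p = 7.34e-05) in cortex, with no overlap in either tissue.

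Aqp4, the water channel of endfeet, had 113, 139 and 171 CPM in MctOatp KO striatum, against 159, 188 and 214 CPM in WTa striatum. In cortex it had 96.2, 135, 165, 169 and 172 CPM in the 5 MctOatp KO cortices, against 141, 176 and 198 CPM in WTa cortex. It fell in MctOatp KO striatum (-0.37, SE 0.13, adjusted p = 0.0347; as labelled -0.40, adjusted p = 0.0170). That call was lost with the replicate number as a block (-0.34, adjusted p = 0.0660) and with no filter on low counts (-0.37, adjusted p = 0.0668). In MctOatp KO cortex the change of -0.18 (SE 0.14, adjusted p = 0.399) did not pass (as labelled -0.26, adjusted p = 0.246). Aqp4 had 109, 152 and 215 CPM in MctDio KO striatum and 112, 122 and 134 CPM in MMI striatum, against 107, 125 and 148 CPM in WT striatum. In cortex it had 103, 125 and 166 CPM in MctDio KO and 101, 110.3 and 145 CPM in MMI, against 101, 118 and 148 CPM in WT. None of these passed: the changes were 0.33 (SE 0.13, adjusted p = 0.0577) and 0.18 (SE 0.13, adjusted p = 0.349) in MctDio KO striatum and cortex and -0.04 (SE 0.13, adjusted p = 0.847) and -0.06 (SE 0.13, adjusted p = 0.755) in MMI striatum and cortex. By library, MctDio KO 1 to 7 had 109, 113, 121, 152, 198, 211 and 215 CPM in striatum, and 109, 103, 121, 125, 166, 162 and 163 CPM in cortex, with MctDio KO 5 to 7 highest in both tissues. MctDio KO striatum had a coefficient of variation of 29.7%, against 10.9% in WT striatum. Of the other endfoot and junction genes, Mlc1 and Hepacam, which encode a membrane protein and its partner GlialCAM, and Cldn10, a claudin, had changes between -0.13 and 0.20 over the 6 comparisons, of which Hepacam in MMI cortex (0.20, SE 0.05, adjusted p = 0.000839) passed and no other did. As labelled, Hepacam in MctOatp KO striatum passed too (-0.17, adjusted p = 0.0292); the other MctOatp KO changes of the 3 genes then lay between -0.09 and 0.16.

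Aldh1l1 averaged 56.9 ± 4.32 CPM in MctOatp KO striatum (n = 6), against 62.8 ± 5.62 CPM in WTa striatum (n = 7). In cortex it averaged 65.5 ± 2.67 CPM in MctOatp KO mice (n = 5), against 79.2 ± 6.60 CPM in WTa cortex (n = 7). In striatum it averaged 57.1 ± 4.09 CPM in MctDio KO and 61.1 ± 2.12 CPM in MMI, against 63.0 ± 3.08 CPM in WT. The cortical means were 69.9 ± 4.40 CPM in MctDio KO and 75.8 ± 5.71 CPM in MMI, against 84.3 ± 12.1 CPM in WT (SD, n = 7 each). It fell in the cortex of both knockouts, with changes of -0.26 (SE 0.07, adjusted p = 0.00634) in MctOatp KO (as labelled -0.27, adjusted p = 0.0258) and -0.26 (SE 0.07, adjusted p = 0.00278) in MctDio KO (as labelled -0.26, adjusted p = 0.0537), and passed in no other model comparison. Of its exons, 11.0% overlap the antisense gene Gm15756. S100b averaged 134 ± 9.86 CPM in MctOatp KO striatum (n = 6), against 148 ± 5.20 CPM in WTa striatum (n = 7). In cortex it averaged 94.7 ± 7.18 CPM in MctOatp KO mice (n = 5), against 104 ± 2.28 CPM in WTa cortex (n = 7). In striatum it averaged 109.7 ± 13.0 CPM in MctDio KO and 120.3 ± 7.85 CPM in MMI, against 137 ± 7.48 CPM in WT. The cortical means were 88.7 ± 7.69 CPM in MctDio KO and 92.3 ± 8.88 CPM in MMI, against 106 ± 11.9 CPM in WT (SD, n = 7 each). S100b fell in MctDio KO (-0.31, SE 0.06, adjusted p = 5.39e-05 in striatum and -0.25, SE 0.06, adjusted p = 0.00285 in cortex) and in MMI (-0.18, SE 0.06, adjusted p = 0.0101 and -0.20, SE 0.06, adjusted p = 0.00972), and did not pass in MctOatp KO (-0.15, SE 0.06, adjusted p = 0.0654 and -0.12, SE 0.07, adjusted p = 0.201), although as labelled it passed in MctOatp KO striatum (-0.21, adjusted p = 0.0289). Here the library cortex MctOatp KO 1, with 280.5 CPM, turns the sign of the cortical MctOatp KO value, which was 0.27 (adjusted p = 0.252) as labelled, and the cortical calls of MctDio KO and MMI were lost as labelled (-0.24, adjusted p = 0.426 and -0.19, adjusted p = 0.427). Sox9, a transcription factor of the glial lineage, rose in MctOatp KO striatum (0.32, SE 0.08, adjusted p = 0.00144; as labelled 0.26, adjusted p = 0.0168), in MMI striatum (0.26, SE 0.07, adjusted p = 0.00249) and in MMI cortex (0.32, SE 0.11, adjusted p = 0.0188). In MctOatp KO cortex its change of 0.25 (SE 0.12, adjusted p = 0.145) did not pass, and as labelled it did (0.35, adjusted p = 0.0478).

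Members that rose included Mfge8, whose secreted product bridges phosphatidylserine on cells to phagocytes. It had 119.9, 152 and 172 CPM in MctOatp KO striatum, against 101, 112 and 126 CPM in WTa striatum. In cortex it had 195, 234, 246, 248 and 257 CPM in the 5 MctOatp KO cortices, against 159.5, 174 and 195 CPM in WTa cortex. In MMI it had 124, 149 and 168 CPM in striatum, against 103, 108 and 140.4 CPM in WT. It had 199, 237 and 256 CPM in cortex, against 142, 153 and 204 CPM in WT. The ranges overlapped at their edges, except in MctOatp KO cortex, where the lowest library, 194.82 CPM, lay just above the highest of WTa, 194.59 CPM. The changes were 0.43 (SE 0.09, adjusted p = 0.000298) and 0.44 (SE 0.09, adjusted p = 0.000310) in MctOatp KO striatum and cortex (as labelled 0.53, adjusted p = 0.000155 and 0.37, adjusted p = 0.0201), and 0.37 (SE 0.08, adjusted p = 0.000465) and 0.50 (SE 0.08, adjusted p = 7.33e-06) in MMI striatum and cortex. MctDio KO, with 0.15 (SE 0.08, adjusted p = 0.220) and 0.11 (SE 0.08, adjusted p = 0.350), did not pass.

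Slc14a1, the urea transporter, rose in the cortex of MctOatp KO and MMI. Its striatal levels were 11.2, 14.0 and 15.6 CPM in MctOatp KO, against 10.7, 12.2 and 13.5 CPM in WTa. They were 11.0, 14.4 and 14.8 CPM in MMI, against 12.1, 13.3 and 14.7 CPM in WT. Its cortical levels were 12.7, 15.3, 15.4, 15.7 and 15.9 CPM in MctOatp KO, against 7.70, 9.42 and 11.3 CPM in WTa. They were 11.7, 16.1 and 21.7 CPM in MMI, against 7.88, 10.4 and 13.5 CPM in WT. Every MctOatp KO cortex lay above every WTa cortex, and the MMI cortices overlapped WT by the lower libraries. The changes were 0.19 (SE 0.09, adjusted p = 0.148) and 0.67 (SE 0.12, adjusted p = 4.07e-05) in MctOatp KO striatum and cortex (as labelled 0.13, adjusted p = 0.376 and 0.65, adjusted p = 0.000172) and 0.02 (SE 0.09, adjusted p = 0.858) and 0.71 (SE 0.11, adjusted p = 1.22e-06) in MMI striatum and cortex. MctDio KO, with -0.05 (SE 0.09, adjusted p = 0.735) in striatum and -0.08 (SE 0.11, adjusted p = 0.690) in cortex, did not pass. The difference between the tissues, tested as an interaction in the fit over both, was -0.69 (SE 0.14, adjusted p = 0.000337) for MMI and -0.48 (SE 0.15, adjusted p = 0.0739) for MctOatp KO. That of MctOatp KO passed with the animal as a block (-0.50, adjusted p = 0.0224) and with all libraries as labelled (-0.52, adjusted p = 0.0359).

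Slc15a2, which takes up small peptides, rose in MMI of both tissues, with 28.8, 34.5 and 36.3 CPM in MMI striatum, against 13.9, 20.2 and 28.8 CPM in WT striatum. It had 36.8, 40.8 and 45.1 CPM in MMI cortex, against 20.2, 25.0 and 27.6 CPM in WT cortex. No MMI library overlapped WT, although in striatum the lowest of MMI, 28.834 CPM, was close to the highest of WT, 28.768 CPM. The changes were 0.69 (SE 0.11, adjusted p = 5.93e-06) and 0.73 (SE 0.08, adjusted p = 5.08e-10). The changes of MctOatp KO, 0.10 (SE 0.12, adjusted p = 0.599) and 0.12 (SE 0.08, adjusted p = 0.325), and of MctDio KO, 0.27 (SE 0.11, adjusted p = 0.0945) and 0.17 (SE 0.08, adjusted p = 0.109), did not pass. As labelled, the MctOatp KO changes were 0.12 (adjusted p = 0.485) in striatum and 0.22 (adjusted p = 0.14) in cortex. Htra1, a secreted serine protease, rose in MctDio KO striatum (0.25, SE 0.06, adjusted p = 0.00291) and cortex (0.33, SE 0.07, adjusted p = 0.000344) and in MMI cortex (0.30, SE 0.07, adjusted p = 0.000462). In MMI striatum it had 0.15 (SE 0.06, adjusted p = 0.0596) and in MctOatp KO -0.12 (SE 0.07, adjusted p = 0.190) and -0.18 (SE 0.07, adjusted p = 0.0809) in striatum and cortex, none of which passed. With every library kept, MctOatp KO gave -0.08 (adjusted p = 0.436) in striatum and -0.02 (adjusted p = 0.943) in cortex.

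**Figure D4:**
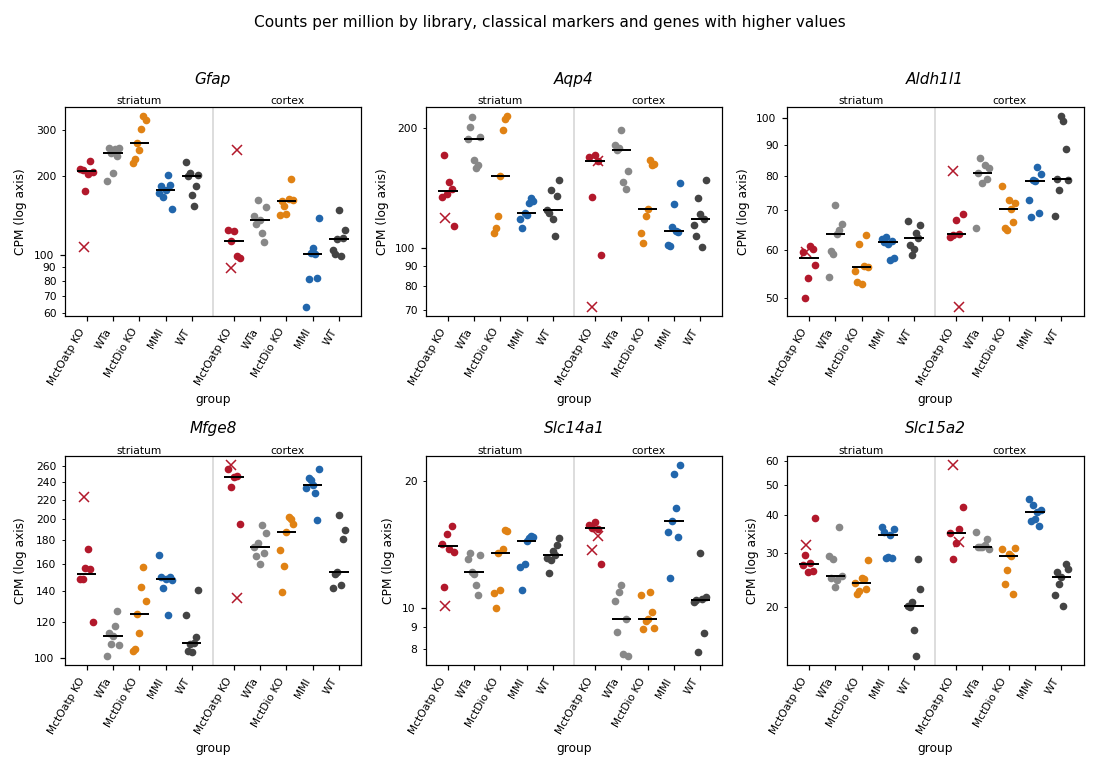
CPM by library on a log axis for Gfap, Aqp4, Aldh1l1, Mfge8, Slc14a1 and Slc15a2, with striatum on the left and cortex on the right of each panel; dots are libraries, bars group medians, and crosses the 3 MctOatp KO libraries left out. Gfap is highest in MctDio KO of both tissues, and Slc14a1 is raised in the cortex of MctOatp KO and MMI with striatal groups that overlap.

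Of the other secreted and surface genes, Clu, a chaperone and lipid carrier, fell in MctOatp KO (-0.21, SE 0.05, adjusted p = 0.00153 in striatum and -0.21, SE 0.07, adjusted p = 0.0262 in cortex) and in MMI (-0.34, SE 0.05, adjusted p = 1.97e-07 and -0.16, SE 0.06, adjusted p = 0.0435). In MMI striatum it had 725, 754 and 832 CPM, against 955, 964 and 1079.7 CPM in WT striatum, with no overlap, and both cortical calls were lost with the libraries as labelled (-0.04, adjusted p = 0.851 in MctOatp KO and -0.16, adjusted p = 0.350 in MMI). As labelled, MctOatp KO striatum gave -0.21 (adjusted p = 0.00130). The call of MctOatp KO cortex was also lost without MctOatp KO 3 (-0.18, adjusted p = 0.0878), 5 (-0.21, adjusted p = 0.0553) or 6 (-0.20, adjusted p = 0.0612). Both cortical Clu calls were lost with no filter on low counts too. That of MMI was also lost with only the groups compared in the fit. Sparcl1 fell in MctOatp KO striatum (-0.32, SE 0.06, adjusted p = 9.36e-05) and cortex (-0.19, SE 0.05, adjusted p = 0.00461) and in MctDio KO cortex (-0.22, SE 0.05, adjusted p = 0.000405), and in MMI its changes were -0.02 and -0.03, with adjusted p of 0.764 and 0.579. As labelled, MctOatp KO gave -0.23 (adjusted p = 0.0196) in striatum and -0.24 (adjusted p = 0.0374) in cortex, and the call of MctDio KO cortex was lost (-0.21, adjusted p = 0.0899). F3, tissue factor of the clotting cascade, fell in MctOatp KO striatum (-0.43, SE 0.07, adjusted p = 3.55e-05; as labelled -0.44, adjusted p = 2.30e-05) and cortex (-0.53, SE 0.10, adjusted p = 0.000143) and in MMI striatum (-0.26, SE 0.07, adjusted p = 0.00344); the call of MctOatp KO cortex was lost as labelled (-0.34, adjusted p = 0.0897). Btbd17 fell in MctOatp KO cortex (-0.34, SE 0.11, adjusted p = 0.0238; as labelled -0.30, adjusted p = 0.0603) and in no other model comparison; its cortical change was -0.30 (adjusted p = 0.0792) without MctOatp KO 3 and -0.31 (adjusted p = 0.0667) without MctOatp KO 6, neither of which passed. As labelled, MctOatp KO striatum had -0.17 (adjusted p = 0.191). Agt passed in none with the 3 libraries left out and in MctOatp KO striatum as labelled (-0.68, adjusted p = 0.0336), although its changes ran from -0.61 to 0.47: its coefficient of variation reached 41.7% in MMI striatum and 52.2% in WT cortex.

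MctOatp KO against WTa and MMI against WT share no library, so their changes can be set beside each other. In striatum 13 genes fell in both, which is 86.7% of the 15 lower in MctOatp KO and 92.9% of the 14 lower in MMI. In cortex 10 fell in both, 66.7% of the 15 lower in MctOatp KO and 83.3% of the 12 lower in MMI. Acsbg1, Atp1b2, Clu, Etnppl, Gpr37l1, Ntsr2, Slc25a18, Slc39a12, Slc4a4 and Slc7a10 were among them in both tissues. The genes that rose in both were Mfge8 and Sox9 in striatum and Mfge8 and Slc14a1 in cortex, and 0 genes in striatum and 0 in cortex were called in opposite directions. Across the 30 genes the log2 changes had a Pearson r of 0.792 in striatum and 0.912 in cortex, and 0.732 and 0.857 without Etnppl; these are descriptions across genes, which are not independent replicates. As labelled, 12 genes fell in both in striatum, 70.6% of the 17 lower in MctOatp KO and 92.3% of the 13 lower in MMI, and 9 in cortex, 75.0% of the 12 lower in MctOatp KO and all 9 lower in MMI. Slc25a18 in striatum and Clu in cortex were then not among them, Sox9 rose in both in cortex too, and Pearson's r was 0.757 in striatum and 0.916 in cortex. In cortex the MctOatp KO calls of Slc7a10, Slc39a12 and Clu, given above, also depend on single libraries. Of all tested genes, 25.1% were called in either direction in MctOatp KO and 38.7% in MMI in striatum, and 21.7% and 40% in cortex. The shares that fell were 13.0% in MctOatp KO and 19.7% in MMI in striatum, and 11.6% and 20.0% in cortex. Joint calls and correlations were not computed over all genes, so the agreement is not shown to be particular to the members.

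**Figure D5:**
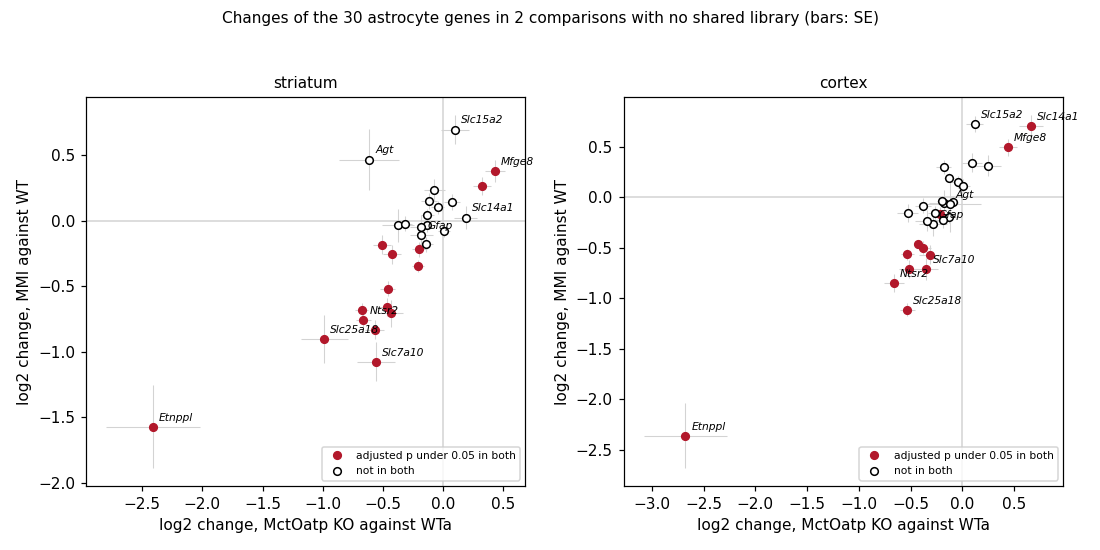
Log2 change in MctOatp KO against WTa (x axis) and in MMI against WT (y axis) for the 30 genes in striatum (left) and cortex (right); bars are standard errors, and red points passed in both comparisons. Etnppl lies far at the lower left of both panels, and Slc15a2 and, in striatum, Agt lie off the common trend.

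MctDio KO was compared with MMI directly. In striatum 11 genes were higher and 3 lower in MctDio KO, where 6.80% of all genes lay above and 5.49% below MMI. In cortex 9 were higher and 6 lower, where 5.70% of all genes lay above and 5.29% below MMI. The groups did not overlap for 7 members in striatum (2.62% of all genes) and 7 in cortex (2.42%). Slc25a18 was higher in MctDio KO by 0.58 (SE 0.19, adjusted p = 0.0365) in striatum and 0.57 (SE 0.07, adjusted p = 8.40e-08) in cortex. Atp1b2 (0.51, SE 0.05, adjusted p = 6.05e-09 and 0.29, SE 0.04, adjusted p = 5.12e-07) and Acsbg1 (0.51, SE 0.07, adjusted p = 2.21e-06 and 0.45, SE 0.06, adjusted p = 4.94e-07) were higher too, as was Clu in striatum (0.45, SE 0.05, adjusted p = 9.85e-09) and in cortex (0.23, SE 0.06, adjusted p = 0.0138). Etnppl was higher in MctDio KO by 1.07 (SE 0.32, adjusted p = 0.0263) in striatum and 1.40 (SE 0.34, adjusted p = 0.00576) in cortex. In striatum the call was lost with the replicate number as a block (1.02, adjusted p = 0.0544). With only the groups compared in the fit, the Etnppl call was lost in both tissues, and that of Slc25a18 in striatum. That fit had 7 members higher and 3 lower in striatum (7.93% of all genes called) and 7 and 6 in cortex (9.08%). Slc15a2 was lower in MctDio KO in both tissues (-0.43, SE 0.11, adjusted p = 0.00815 and -0.55, SE 0.08, adjusted p = 1.98e-06), and Slc14a1 in cortex (-0.79, SE 0.11, adjusted p = 2.19e-06). Aqp4, Aldh1l1 and S100b did not pass in either tissue. As labelled, MctDio KO was higher for 9 members and lower for 2 in striatum (3.98% and 3.47% of all genes), and for 4 and 3 in cortex (1.09% and 2.10%). The calls of Slc25a18 in striatum (0.58, adjusted p = 0.242) and of Atp1b2 (0.29, adjusted p = 0.295) and Clu (0.23, adjusted p = 0.388) in cortex were then lost.

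Few changes were shown to differ between the tissues. The difference of the change, striatum minus cortex, passed for 2 of the 30 genes in MMI (7.72% of all genes called), 0 in MctDio KO (4.09% called) and 1 in MctOatp KO (2.96% called). Besides Slc14a1, it was Atp1b2, which fell further in striatum than in cortex, with differences of -0.23 (SE 0.06, adjusted p = 0.0143) in MMI and -0.25 (SE 0.07, adjusted p = 0.0184) in MctOatp KO. As labelled, the value for MctOatp KO was 0.04 (adjusted p = 0.891) and that for MMI -0.22 (adjusted p = 0.668), and with only the libraries numbered 7 left out they were -0.09 (adjusted p = 0.774) and -0.22 (adjusted p = 0.504). In MctDio KO no gene passed in edgeR's test; the count by DESeq2 was 0, and 1 gene had an unadjusted p under 0.05. Etnppl had a difference of 0.78 (SE 0.45, adjusted p = 0.386) in MMI, which passed with the animal as a block (0.79, adjusted p = 0.00121).

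The wild-type groups differed from each other. In striatum 4 genes were higher and 2 lower in WTa than in WT, where 5.20% of all genes lay above and 5.84% below WT. In cortex 3 were higher and 2 lower, where 2.88% of all genes lay above and 3.83% below WT. The groups did not overlap for 4 members in striatum (2.97% of all genes) and 2 in cortex (1.71%). Sox9 had 27.5, 30.6 and 35.0 CPM in WTa striatum, against 39.3, 44.0 and 49.5 CPM in WT striatum. It had 19.1, 25.4 and 31.4 CPM in WTa cortex, against 34.2, 35.7 and 46.7 CPM in WT cortex. The groups did not overlap in either tissue, with changes of -0.50 (SE 0.07, adjusted p = 1.86e-05) and -0.57 (SE 0.11, adjusted p = 0.00200). Aqp4 was higher in WTa, by 0.51 (SE 0.13, adjusted p = 0.00723) in striatum and 0.48 (SE 0.13, adjusted p = 0.0189) in cortex, and Gfap was higher in striatum (0.30, SE 0.09, adjusted p = 0.0286) with 0.25 (SE 0.12, adjusted p = 0.245) in cortex, which did not pass. Slc15a2 was higher in both (0.44, SE 0.11, adjusted p = 0.0101 and 0.40, SE 0.08, adjusted p = 0.00151), as was Htra1 (0.29, SE 0.06, adjusted p = 0.00226 and 0.24, SE 0.07, adjusted p = 0.0243). Clu was lower in WTa striatum (-0.20, SE 0.05, adjusted p = 0.00486) and Atp1b2 in WTa cortex (-0.17, SE 0.04, adjusted p = 0.00357). Differences of this size between wild types are as large as some of the changes in the models, and MctOatp KO was never set against WT. As labelled, the counts were 3 higher and 2 lower in striatum (3.01% and 3.42% of all genes) and 1 higher and 1 lower in cortex (0.346% and 0.648%). The calls of Gfap in striatum (0.30, adjusted p = 0.128) and of Aqp4 (0.48, adjusted p = 0.115), Atp1b2 (-0.17, adjusted p = 0.758) and Htra1 (0.25, adjusted p = 0.354) in cortex were then lost.

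A further 40 astrocyte genes outside the list, described by counts, were mixed in direction. In MctOatp KO 9 rose and 16 fell in striatum and 6 rose and 14 fell in cortex. In MctDio KO 7 rose and 6 fell in striatum and 9 rose and 7 fell in cortex. In MMI 11 rose and 14 fell in striatum and 13 rose and 14 fell in cortex. Their median log2 change lay between -0.06 and 0.04 in these comparisons, where that of all genes was 0.01. Kcnj10, the potassium channel Kir4.1, had log2 changes of -1.17 (adjusted p = 5.91e-09) in MctOatp KO striatum, -0.75 (adjusted p = 7.40e-06) in MctDio KO striatum and -1.44 (adjusted p = 7.58e-12) in MMI striatum, all lower. Acsl6, an acyl-CoA synthetase, had -0.48 (adjusted p = 1.54e-10), -0.24 (adjusted p = 5.96e-05) and -0.63 (adjusted p = 1.23e-14) in the same order. Slc1a3, the glutamate transporter GLAST, rose in striatum, by 0.39 (adjusted p = 2.17e-06) in MctOatp KO, 0.33 (adjusted p = 1.64e-05) in MctDio KO and 0.69 (adjusted p = 9.50e-13) in MMI. Daam2, a formin-like regulator of Wnt signalling, had -0.62 (adjusted p = 3.89e-09) in MctOatp KO cortex, 0.12 (adjusted p = 0.15) in MctDio KO cortex, which did not pass, and -0.69 (adjusted p = 6.96e-12) in MMI cortex. As labelled, 9 rose and 15 fell in MctOatp KO striatum and 2 rose and 11 fell in cortex, with -1.27 (adjusted p = 8.95e-09) for Kcnj10, -0.45 (adjusted p = 1.18e-08) for Acsl6 and 0.42 (adjusted p = 1.78e-06) for Slc1a3 in striatum and -0.69 (adjusted p = 0.00976) for Daam2 in cortex. Shares of all genes for these counts are those given for each comparison above, 10.1 to 12.1% higher and 11.1 to 13.0% lower in the knockouts, and 19.0 to 19.9% higher and 19.7 to 20.0% lower in MMI.

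For the lists that follow, 10.1 to 12.1% of all genes rose and 11.1 to 13.0% fell in the knockouts. In MMI 19.0 to 19.9% of all genes rose and 19.7 to 20.0% fell. Genes of immature glia were mostly higher where they passed. Of 15, 6 rose and 1 fell in MctOatp KO striatum and 3 and 1 in cortex, 3 rose and 0 fell in MctDio KO striatum and 3 and 0 in cortex, and 6 rose and 1 fell in MMI striatum and 6 and 1 in cortex. Their median change lay between 0.03 and 0.20. Vim, the intermediate filament vimentin, rose by 0.84 (adjusted p = 6.14e-08) in MctOatp KO striatum, 0.35 (adjusted p = 0.00685) in MctDio KO striatum and 0.82 (adjusted p = 9.17e-09) in MMI striatum, and Tnc, the matrix protein tenascin-C, by 1.05 (adjusted p = 1.57e-05) and 1.22 (adjusted p = 2.18e-07) in MctOatp KO and MMI striatum; in MctDio KO striatum Tnc had 0.41 (adjusted p = 0.0729), which did not pass. Id2, an inhibitor of DNA-binding transcription factors, fell in MctOatp KO striatum (-0.74, adjusted p = 4.78e-09) and MMI striatum (-0.48, adjusted p = 3.18e-06) and had -0.08 (adjusted p = 0.517) in MctDio KO striatum. As labelled, 5 rose and 2 fell in MctOatp KO striatum and 3 rose and 0 fell in cortex, with 0.74 (adjusted p = 2.12e-05) for Vim, 0.96 (adjusted p = 0.000120) for Tnc and -0.53 (adjusted p = 0.00294) for Id2 in striatum. Of 33 genes linked to reactive astrocytes, the tested members that rose or fell numbered 6 and 2 in MctOatp KO striatum and 5 and 4 in cortex, 5 and 1 in MctDio KO striatum and 6 and 5 in cortex, and 14 and 0 in MMI striatum and 12 and 3 in cortex, with 27 tested in striatum and 28 in cortex. Their median change lay between -0.11 and 0.34. Osmr, the oncostatin M receptor, rose by 0.73 (adjusted p = 1.17e-05), 0.85 (adjusted p = 2.23e-07) and 1.43 (adjusted p = 1.51e-13) in striatum of MctOatp KO, MctDio KO and MMI. In the same order S1pr3, a sphingosine-1-phosphate receptor, had 0.06 (adjusted p = 0.767), -0.12 (adjusted p = 0.440) and 0.66 (adjusted p = 8.56e-07), and Amigo2, an adhesion protein gene, 0.28 (adjusted p = 0.0179), 0.59 (adjusted p = 1.76e-06) and 0.53 (adjusted p = 4.64e-06). In cortex Aspg, an asparaginase gene, had -1.32 (adjusted p = 2.34e-06), -1.04 (adjusted p = 1.18e-05) and -1.77 (adjusted p = 3.52e-10), and Cd44, the hyaluronan receptor, 1.05 (adjusted p = 1.31e-07), 0.93 (adjusted p = 3.76e-07) and 1.32 (adjusted p = 1.97e-11). As labelled, 4 rose and 2 fell in MctOatp KO striatum and 3 rose and 3 fell in cortex. Osmr then had 0.74 (adjusted p = 8.08e-06), S1pr3 0.26 (adjusted p = 0.191) and Amigo2 0.29 (adjusted p = 0.0142) in striatum, and Aspg -1.06 (adjusted p = 0.000447) and Cd44 1.07 (adjusted p = 4.32e-05) in cortex. Of 10 genes of the complex that anchors Aqp4 at endfeet, 2 rose and 1 fell in MctOatp KO striatum, 1 and 2 in MctDio KO striatum and 2 and 2 in MMI striatum, with 1 and 0, 1 and 0, and 2 and 1 in cortex, and their median change lay between -0.02 and 0.10. As labelled, 2 rose and 2 fell in MctOatp KO striatum. With 10 genes, such counts lie near the shares of all genes and are no result about the complex. Of 12 synapse-organising and phagocytic factors, 0 rose and 4 fell in MctOatp KO striatum and 3 and 4 in cortex, 2 rose and 3 fell in MctDio KO striatum and 4 and 4 in cortex, and 1 rose and 6 fell in MMI striatum and 3 and 4 in cortex. Of 12 glial transcription factors, 2 rose and 2 fell in MctOatp KO striatum and 4 and 1 in cortex, 2 rose and 1 fell in MctDio KO striatum and 2 and 2 in cortex, and 3 rose and 2 fell in MMI striatum and 5 and 3 in cortex. As labelled, 0 rose and 4 fell of the first list in MctOatp KO striatum and 2 rose and 4 fell in cortex, and 4 rose and 1 fell of the other in striatum and 1 rose and 1 fell in cortex.

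Markers of other cells were counted in the same libraries. Over all genes, 10.1 to 12.1% rose and 11.1 to 13.0% fell in the knockouts. In MMI 19.0 to 19.9% of all genes rose and 19.7 to 20.0% fell. As labelled, 11.2% rose and 10.7% fell in MctOatp KO striatum, and 6.99% and 5.85% in MctOatp KO cortex. Of 8 oligodendrocyte markers, 8 fell in MctOatp KO striatum and 8 in cortex, 8 in MctDio KO striatum and 8 in cortex, and 4 in MMI striatum and 8 in cortex, and none rose. As labelled, 6 fell in MctOatp KO striatum and 0 in cortex, where 0 had an unadjusted p under 0.05 in edgeR. Their summed level ranged over 5154 to 6518 CPM in MctOatp KO cortex and 7787 to 9326 CPM in WTa cortex, and over 4093 to 6794 CPM in MctDio KO, 4898 to 7489 CPM in MMI and 8594 to 11242 CPM in WT cortex. In striatum it ranged over 26066 to 31699 CPM in MctOatp KO and 32584 to 43150.0 CPM in WTa, and over 27148 to 35832 CPM in MctDio KO, 29145 to 40849.7 CPM in MMI and 33651 to 48087 CPM in WT. Of 8 microglia markers, 7 rose in MMI striatum and 6 in MMI cortex, 5 and 6 in MctDio KO striatum and cortex, and 3 and 0 in MctOatp KO striatum and cortex; 1 fell in MctOatp KO cortex. As labelled, 3 rose and 0 fell in MctOatp KO striatum and 2 rose and 0 fell in cortex. Their sum ranged over 475 to 539.6 CPM in MctOatp KO striatum and 411 to 459 CPM in WTa striatum, and over 491 to 621 CPM in MctDio KO, 574 to 703 CPM in MMI and 422 to 526 CPM in WT striatum. In cortex it ranged over 375 to 445 CPM in MctOatp KO and 372 to 393 CPM in WTa, and over 399.6 to 497 CPM in MctDio KO, 472 to 555 CPM in MMI and 348 to 471 CPM in WT.

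Of 8 neuron markers, 1 rose and 2 fell in MctOatp KO striatum and 0 and 3 in cortex, 2 rose and 3 fell in MctDio KO striatum and 0 and 3 in cortex, and 1 rose and 4 fell in MMI striatum and 0 and 3 in cortex. Of 6 markers of oligodendrocyte precursors, 0 rose and 2 fell in MctOatp KO striatum and 0 and 1 in cortex, 0 rose and 0 fell in MctDio KO striatum and 1 and 1 in cortex, and 4 rose and 0 fell in MMI striatum and 4 and 0 in cortex. Of 8 endothelial markers, 0 rose and 1 fell in MctOatp KO striatum and 0 and 2 in cortex, 0 rose and 2 fell in MctDio KO striatum and 0 and 1 in cortex, and 4 rose and 1 fell in MMI striatum and 4 and 1 in cortex. Of 8 markers of mural and leptomeningeal cells, 2 rose and 0 fell in MctOatp KO striatum and 0 and 0 in cortex, 0 rose and 3 fell in MctDio KO striatum and 0 and 0 in cortex, and 2 rose and 1 fell in MMI striatum and 3 and 0 in cortex. Of 6 ependymal markers, 3 of them tested in cortex, 0 rose and 0 fell in MctOatp KO striatum and 0 and 0 in cortex, 0 rose and 1 fell in MctDio KO striatum and 0 and 1 in cortex, and 0 rose and 1 fell in MMI striatum and 0 and 1 in cortex. Of 6 choroid plexus markers, 0 rose and 1 fell in MctOatp KO striatum and 0 and 0 in cortex, 0 rose and 0 fell in MctDio KO striatum and 0 and 0 in cortex, and 0 rose and 3 fell in MMI striatum and 0 and 2 in cortex. Of 5 red blood cell genes, 0 rose and 1 fell in MctOatp KO striatum and 0 and 5 in cortex, 0 rose and 0 fell in MctDio KO striatum and 0 and 0 in cortex, and 0 rose and 5 fell in MMI striatum and 0 and 5 in cortex. In MMI the sum of the endothelial markers ranged over 176 to 269.9 CPM in striatum and 203 to 288 CPM in cortex, and in WT over 127 to 211 CPM in striatum and 145 to 236 CPM in cortex. That of the precursor markers ranged over 722 to 1062 and 406 to 516 CPM in MMI striatum and cortex, and over 606 to 683 and 315 to 431 CPM in WT striatum and cortex. That of the neuron markers ranged over 3170.3 to 3928 and 5907 to 7079 CPM in MMI striatum and cortex, and over 3441 to 4175 and 6342 to 8044 CPM in WT striatum and cortex. The red blood cell genes summed to 50.2 to 87.1 CPM in MMI striatum and 53.0 to 67.5 CPM in MMI cortex, and to 124 to 297 CPM in WT striatum and 111 to 234 CPM in WT cortex. In cortex they summed to 94.9 to 134 CPM in MctOatp KO and 143 to 319.9 CPM in WTa. These red blood cell sums did not overlap between MMI and WT in either tissue, nor between MctOatp KO and WTa in cortex, while the endothelial and neuron sums overlapped in both tissues. As labelled, 0 rose and 1 fell of the neuron markers in MctOatp KO striatum and 1 rose and 2 fell in cortex. For MctOatp KO striatum the counts were then 0 rose and 3 fell of the precursor markers and 0 rose and 1 fell of the endothelial ones, and no precursor, endothelial or red blood cell gene passed in MctOatp KO cortex and no red blood cell gene in MctOatp KO striatum, with at most 2 of any of these lists at an unadjusted p under 0.05. In MctOatp KO cortex as labelled, 2 choroid plexus markers rose and 0 fell, with a median log2 change of 1.88. There 5 of the 6 had an unadjusted p under 0.05 in edgeR. In striatum 0 rose and 1 fell. Of the ependymal markers, 1 rose and 0 fell in cortex and none passed in striatum. Of the mural and leptomeningeal ones, 0 rose and 1 fell in cortex and 1 rose and 0 fell in striatum. Where edgeR called 0 markers of a list with the 3 libraries left out, at most 3 had an unadjusted p under 0.05, and DESeq2 called at most 1. Of all these markers, 2 ependymal ones were at 0 in some cortex library, and none was at 0 in every library of a tissue. Single calls in these short lists lie near the shares of all genes given above and are no result about a cell type. The part of these markers in the changes of the astrocyte genes was not tested.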

How the data were processed

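Unstranded libraries of single reads were made from total RNA of 70 samples, per the labels' protocols. The authors deposited whole-number counts per gene, 38293 gene lines and 5 closing lines per library; CASAVA, FastQC, Bowtie, TopHat, HTSeq and edgeR are named, with the build GRCm38, per the submitters' processing notes, and no versions are given in the sources at hand. The closing lines stayed out of library sizes; gene symbols came from the reference table, and 1948 gene lines had none.

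Counts were fitted with edgeR 4.0.16 in R 4.3.3 (limma 3.58.1) by the quasi-likelihood F test with TMM factors, filterByExpr and robust dispersion, all groups of a tissue together, 34 striatum and 33 cortex libraries. Differences between tissues were fitted over all 67. P-values were adjusted by Benjamini-Hochberg over all tested genes, and an adjusted p under 0.05 was called. CPM of single genes and the members' sum used TMM factors over all 70 libraries. Summed levels of the marker lists were scaled to assigned reads only, without TMM factors, and are on another scale than the members' sum. DESeq2 1.42.0, other scaling, filters and sets of libraries were alternatives, and the fit was tested on simulated counts. Log2 changes are those of a model over its wild type, and of the first group named over the other elsewhere.

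The members and lists, and the libraries to leave out, were chosen with earlier results of these data known. Values by group were due for Gfap, Aqp4, Aldh1l1 and S100b and for the called members with the smallest p (up to 6 per tissue for MMI, 4 for each knockout and 3 elsewhere). Of each other list up to 3 genes per tissue could be named. Members described beyond these were chosen after their values were seen. No 2 libraries of a group agreed within counting noise. Same-numbered striatum and cortex libraries came from 1 animal, per the animal tags in the labels, and their deviations from group means correlated with medians of 0.142 to 0.298 across the conditions. The second target of each double knockout is not reported here.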

Additional observations from a re-analysis of the deposited data

Results flagged for a closer look

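The change between tissues differed for 2 genes in MMI and for 1 of them in MctOatp KO, near the 7.72% and 2.96% of all genes called. Both Atp1b2 calls were lost with all libraries as labelled. With the animal as a block, Etnppl in MMI and Slc14a1 in MctOatp KO passed too. For Atp1b2 the log2 change in striatum minus that in cortex was -0.2259 in MMI (adjusted p = 0.0143) and -0.2545 in MctOatp KO (adjusted p = 0.0184), both tested as interactions in edgeR's fit over both tissues. For Slc14a1 the difference was -0.6943 in MMI (adjusted p = 0.000337).

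Single libraries lay far from the rest of their group in 11 of the 180 groups examined, those of 18 members; chance puts a value so far out in about 1 of 20 groups. In cortex, Gfap was 195.96 CPM in MctDio KO 6, above 142.07 to 163.97 in the other libraries of that group. S100b was 72.208 CPM in MctDio KO 2, below 87.325 to 94.56. Slc7a10 was 15.005 CPM in MMI 6, below 18.758 to 21.331. Aldh1l1 was 65.517 CPM in WTa 1, below 77.648 to 85.702, and Aldoc was 1163.3 CPM in WT 4, above 918.06 to 1022.2.

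The animal MctOatp KO 6 accounted for 4 of these values. In its cortex Slc25a18 was 33.924 CPM, below 41.286 to 43.181 in the others, and Slc14a1 was 12.729 CPM, below 15.323 to 15.928. In its striatum Htra1 was 242.69 CPM, above 178.53 to 194.78, and Slc15a2 was 39.105 CPM, above 26.104 to 29.57. Slc15a2 was also high in striatum MctDio KO 7, 28.455 CPM beside 22.128 to 24.822 in the others, and Gpr37l1 was 188.64 CPM in striatum MMI 6, above 157.15 to 170.52.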

How the results depend on the processing

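Of 103 alternative counts of called members, 93 stayed within 1.5 times the reported count. With all libraries as labelled, MctDio KO against WT in cortex had 7 called members and not 13 (7.54% of all genes and not 22.9%), MctDio KO against MMI in cortex 7 and not 15 (3.19% of all genes and not 11.0%), WTa against WT in cortex 2 and not 5 (0.994% of all genes and not 6.71%), and the MMI change between tissues 1 and not 2 (2.49% of all genes and not 7.72%). With only the libraries numbered 7 left out, cortex MctOatp KO 1 being kept, WTa against WT in cortex had 2 called members (1.8% of all genes). The MMI change between tissues then had 1 (4.97%), and the MctOatp KO change between tissues 0 (2.55%) and not 1 (2.96%). That last count was 2 with DESeq2 (3.49%), 3 with only the groups compared in the fit (4.74%), and 2 with the animal as a replicate block (4.24%). Leaving out each cortex MctOatp KO library in turn gave 13 to 18 called members (17.8 to 20.5% of all genes), beside 17 (21.7%). For single members, 1444 alternative values were computed, of which 1340 kept their direction and their side of the threshold, 92 lost and 8 gained a call, and 4 changed sign. S100b in MctOatp KO cortex was 0.2733 as labelled and 0.2563 with only the libraries numbered 7 left out. The difference between tissues in MctOatp KO was -0.1995 for Gfap and 0.0436 for Atp1b2 as labelled. The cause of these shifts was not tested beyond the change of libraries. None of the 3 libraries belongs to MctDio KO, MMI, WT or WTa, but all groups of a tissue share the same fit. The median cortical member change was -0.0927 without the 3 libraries and -0.0897 as labelled in MctDio KO. In MMI cortex it was -0.1536 and -0.1508. With only the groups compared in the fit, 12 of 13 MctDio KO calls and 17 of 19 MMI calls in cortex were kept (18.2% and 40.4% of all genes called). Within a tissue, no pair of groups had a correlation above 0.1 for every pair of same-numbered libraries, so the numbers were not taken as pairs. MctDio KO and WT had median correlations of 0.172 in striatum (-0.114 to 0.472) and 0.183 in cortex (-0.109 to 0.241), beside -0.04 and -0.005 for other numbers, and in striatum 5 of 7 MctDio KO libraries correlated best with the WT library of their own number, a hint from the data and not from the design. With a replicate block the calls of Aqp4 in MctOatp KO striatum and of Etnppl in striatum MctDio KO against MMI were lost. Low members such as Etnppl rest on few reads in MctOatp KO, and counting error is largest there. Counts of each list, overlaps and sums as labelled, the variation of Etnppl without 1 library, and correlations without MctDio KO were added after the data were seen; without MctDio KO the correlation of Aldh1l1 between tissues was 0.039, beside -0.037.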

Other observations

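Each animal gave striatum and cortex, so the members' levels could be followed within animals. Deviations of log2(CPM + 0.5) from the mean of each condition were compared between striatum and cortex over 33 animals, with p from 100000 permutations of animals within conditions and Benjamini-Hochberg adjustment over the 30 genes. Pearson's r was above 0 for 28 of the 30 genes, with a median of 0.43, and 15 had an adjusted p under 0.05. Other genes were not examined this way, so this is not shown to be particular to the members. Over all expressed genes, the 2 libraries of an animal had correlated deviations, with medians of 0.142 to 0.298 across the conditions. Those are correlations across genes and not across animals.

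Etnppl had r = 0.825 (permutation test, adjusted p = 0.0006) and Spearman's rho = 0.746 (adjusted p = 0.000675), and r was 0.724 without the 2 animals farthest from the median striatal deviation. Aqp4 had r = 0.78 (adjusted p = 0.0003), rho = 0.784 (adjusted p = 0.0006) and r = 0.76 without 2 such animals. F3 had r = 0.711 (adjusted p = 0.0006), rho = 0.694 (adjusted p = 0.000675) and r = 0.68 without them. For Gfap r was -0.038 (adjusted p = 0.832) and for Aldh1l1 -0.037 (adjusted p = 0.832). Without the MctDio KO animals, a choice made after the data were seen, 26 animals remained, with r above 0 for 28 genes, a median of 0.422 and an adjusted p under 0.05 for 10. There r was 0.761 for Etnppl (permutation test, adjusted p = 0.0115), 0.705 for Aqp4 (adjusted p = 0.0044), 0.702 for F3 (adjusted p = 0.0036), -0.242 for Gfap (adjusted p = 0.301) and 0.039 for Aldh1l1 (adjusted p = 0.844). Both tissues of an animal also share its litter and handling, whose part was not tested.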
